A study of Gallus gallus with 8 samples.

Results

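The 10 genes described here were taken as a set for the chicken major histocompatibility complex (MHC) and the machinery that loads peptides onto its molecules. They were found by symbol, or by Ensembl identifier for 1 gene without a symbol, in the authors' deposited table. The place of that gene, ENSGALG00000004772, on chromosome 16 does not show what it encodes. YFV matched 2 genes, on the unplaced scaffolds JH375207.1 and JH375196.1. BF1, BLB1, DMB2, B2M, CD74, TAP1, TAP2 and ENSGALG00000004772 matched 1 gene each, and BLB2, asked for by symbol, matched none and is not analysed here. All 10 genes passed the filter on low counts, out of 10136 genes that passed it and 17108 in the count table. The genes were chosen by their log2 fold change between the groups compared below, so that difference is given as a description: no p-value is printed for them, and counts of calls stand only beside the share over all genes.

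RNA was sequenced from the pectoralis (breast) muscle of 4 birds with high shear force (HSF) and 4 birds with low shear force (LSF), shear force being the force needed to cut the meat. Both groups were female broilers of 6 weeks, Hubbard Flex, a meat-type chicken, and the labels name no treatment or allele. The comparison asks which genes differ in level between tougher and more tender breast muscle. Total expected counts ran from 6672776 to 7322205 in the HSF and from 5564905 to 7319140 in the LSF birds. Skeletal muscle markers were, as a sum, abundant in every library. Of 10 listed markers 5 were found by symbol: ACTA1, MYL1, TNNT3, TNNI2 and MB. They summed to between 100265 and 122905 CPM (expected counts scaled to a common library size) in the HSF birds. In the LSF birds the sum was between 95600.04 and 134112 CPM. MB added little to these sums, with a mean of 14.5 CPM in the HSF and 11.6 CPM in the LSF birds. Listed symbols and chromosome 16 genes were sought only in the authors' deposited table, which has rows for 8076 genes, all of them kept. Below, measured means found there, so a symbol called not measured may still have counts under an identifier without a row. On the first principal component, with 32.4% of the variance, LSF birds 1 and 3 stood at 39.0 and 43.9, apart from the other birds at -24.4 to -3.27.

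MHC class I molecules sit on most nucleated cells and show peptides made inside the cell to cytotoxic T cells, while class II molecules sit mainly on macrophages, dendritic cells and B cells and show peptides from material taken up from outside. In chickens the classical genes of both classes lie close together in the B region of chromosome 16, a very small chromosome, and a separate Y region on the same chromosome carries further class I genes. Chicken red blood cells are nucleated and carry class I and B-G proteins on their surface.

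Every one of the 10 genes had a positive log2 fold change, HSF over LSF, as did 50.8% of all genes tested, and those of the 10 ran from 0.20 to 2.27 with a median of 0.57, against a median of 0.01 over all genes. In YFV on JH375207.1 and ENSGALG00000004772 all 4 HSF birds lay above all 4 LSF birds, a pattern found in 3.89% of all genes, while 6.18% had no overlap in either direction. These same 2 genes were the members with a log2 fold change of 1 or more, as had 1.76% of all genes. At an adjusted p under 0.05 edgeR's quasi-likelihood test called 0 of the 10 genes and 0% of all genes, with 12.8% of all genes at an unadjusted p under 0.05. DESeq2 called 2 of the 10, both higher, and 0.888% of all genes as higher. Since the genes were picked with this contrast known, nothing is read from these counts. In a whole muscle sample, fewer cells of a type and less RNA per cell cannot be told apart.

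**Figure D1:**
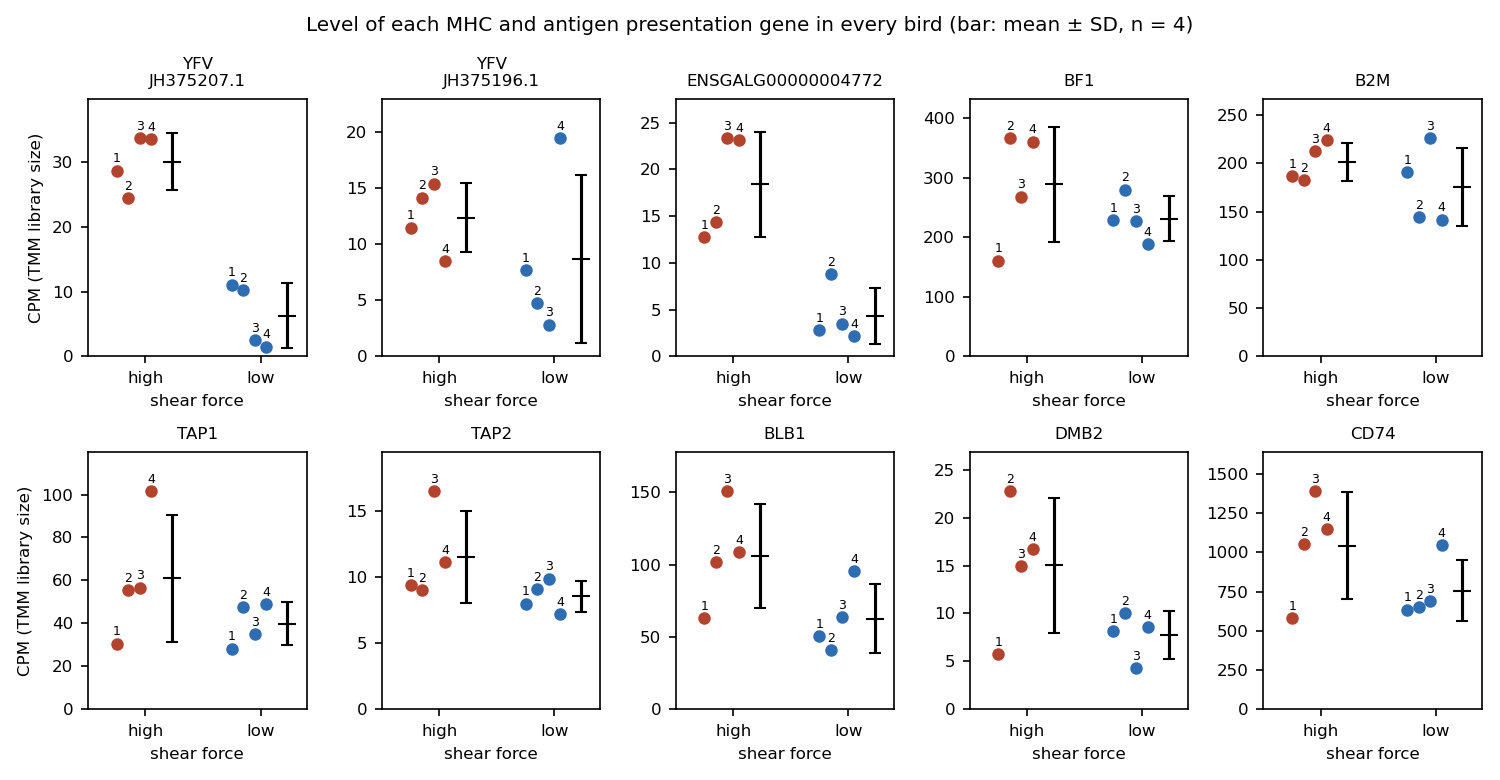
Level of each of the 10 genes in CPM (vertical axis, linear, from 0) in every bird, with HSF birds at the left and LSF birds at the right of each panel, numbered by bird; black bars give the mean ± SD of 4 birds. The groups are separate in YFV on JH375207.1 (24.5 to 33.7 CPM in HSF against 1.51 to 11.1 CPM in LSF birds) and in ENSGALG00000004772 (12.8 to 23.3 CPM in HSF against 2.18 to 8.78 CPM in LSF birds), and overlap in the other 8 genes.

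YFV on JH375207.1 (Ensembl ENSGALG00000024340, scaffold positions 7101 to 9133 in the authors' deposited table) is annotated as a class I gene of the Y region. It stood at 28.7, 24.5, 33.7 and 33.6 CPM in HSF birds 1 to 4, against 11.1, 10.2, 2.44 and 1.51 CPM in LSF birds 1 to 4. The HSF birds were alike and all above the LSF birds, which split into a pair near 10 CPM and a pair near 2 CPM. The means were 30.1 ± 4.43 CPM in the HSF and 6.30 ± 5.02 CPM in the LSF birds (SD, n = 4 each), a log2 fold change of 2.27 ± 0.49 (SE). The coefficient of variation was 14.7% within the HSF and 79.7% within the LSF birds. The counts behind these values were small in places, with 8.91 expected counts in the bird with the lowest.

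The YFV gene on JH375196.1 (ENSGALG00000029093, positions 5803 to 8935) did not repeat this pattern. It had 11.5, 14.2, 15.4 and 8.50 CPM in the HSF birds, against 7.68, 4.74, 2.83 and 19.5 CPM in the LSF birds. LSF bird 4, the lowest of all in the other YFV gene, was the highest of all here, and the groups overlapped. The log2 fold change of 0.53 ± 0.49 (SE) was 1.29 without that bird, 0.20 without LSF bird 3 and -0.00064 without LSF birds 1 and 3.

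ENSGALG00000004772 has no symbol in the authors' deposited table, which places it on chromosome 16 at 380198 to 384541. It had 12.8, 14.3, 23.3 and 23.2 CPM in HSF birds 1 to 4, against 2.77, 8.78, 3.47 and 2.18 CPM in LSF birds 1 to 4. No LSF bird reached the level of the lowest HSF bird, and LSF bird 2 came nearest. The means of 18.4 ± 5.63 CPM in the HSF and 4.30 ± 3.03 CPM in the LSF birds (SD, n = 4 each) gave a log2 fold change of 2.11 ± 0.40 (SE), which was 1.72 without LSF birds 1 and 3. The log2 fold changes in the authors' deposited table are given with the sign turned so that positive means higher in high shear force. From edgeR and from DESeq2 they were 2.08 and 0.95 for ENSGALG00000004772, and 2.24 and 0.80 for YFV on JH375207.1. DESeq2 as run here gave 2.08 and 2.24 for these 2 genes. Why the deposited DESeq2 values are smaller was not tested.

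The counts of these 3 genes were not whole numbers in any of the 8 birds. Such values can arise where reads that match more than 1 gene are divided between them, so the split of such reads is uncertain. Whether these 3 genes share reads with one another or with other genes was not tested. Summed over the 3 genes, a sum chosen after the values were seen, the level was 53.0, 53.0, 72.5 and 65.2 CPM in the HSF and 21.5, 23.7, 8.74 and 23.2 CPM in the LSF birds. The groups did not overlap in this sum either, and the ratio of the means was 3.16.

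Over the 8 birds, the genes with a symbol whose log2 CPM followed YFV on JH375207.1 most closely were EFEMP1, a fibulin of the extracellular matrix, with a Pearson r of 0.93, DHX38, an RNA helicase of splicing, at 0.92, and ADM, the vessel peptide adrenomedullin, at 0.91. ENSGALG00000004772 was followed by gga-mir-6643, a microRNA locus, at 0.97, by TOMM40L, a protein of the mitochondrial outer membrane, at 0.96, and again by ADM at 0.95. The YFV gene on JH375196.1 had other closest genes: F8, coagulation factor VIII, at 0.96, ARHGAP6 at 0.94, and EPT1, an enzyme of phospholipid synthesis, at 0.93. These are the highest of many correlations over 8 birds that include the group difference, and are given as a description. ADM averaged 16.7 ± 1.17 CPM in the HSF and 8.42 ± 4.51 CPM in the LSF birds (SD, n = 4 each).

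The classical class I pathway had smaller fold changes, of 0.20 to 0.62 on the log2 scale. BF1, a classical class I heavy chain of the B region (ENSGALG00000000178, chromosome 16, 73099 to 75588), had 161, 366, 268 and 361 CPM in the HSF birds, against 229, 279.9, 227 and 188 CPM in the LSF birds. HSF bird 1 had the lowest level of all 8, and the groups overlapped. The log2 fold change was 0.32 ± 0.24 (SE), with 0.19 without HSF bird 2, 0.20 without HSF bird 4 and 0.52 without HSF bird 1. B2M, beta-2-microglobulin, the light chain that every class I heavy chain binds (ENSGALG00000002160, chromosome 10, 827900 to 828534), had the smallest range over birds of the 10 genes in fold, with 187, 183, 213 and 224 CPM in the HSF and 191, 144, 226 and 142 CPM in the LSF birds. Its highest bird stood 1.60-fold above its lowest, and the log2 fold change was 0.20 ± 0.18 (SE), or 0.46 without LSF birds 1 and 3 and 0.09 without LSF bird 2.

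TAP1 and TAP2 encode the subunits of the transporter that carries peptides into the endoplasmic reticulum for class I loading. TAP1 (ENSGALG00000026269, chromosome 16, 67623 to 76124) had 30.5, 55.3, 56.6 and 102 CPM in the HSF and 28.1, 47.4, 34.8 and 49.1 CPM in the LSF birds. HSF bird 4 stood far above the others and bird 1 of each group was lowest, and the groups overlapped. The log2 fold change of 0.62 ± 0.32 (SE) was 0.26 without HSF bird 4 and 0.31 without LSF birds 1 and 3. TAP2 (ENSGALG00000000181, chromosome 16, 64031 to 67067) had 9.42, 9.04, 16.6 and 11.1 CPM in the HSF and 7.99, 9.13, 9.90 and 7.22 CPM in the LSF birds, with a log2 fold change of 0.43 ± 0.24 (SE). Its highest value was that of HSF bird 3, without which the log2 fold change was 0.20. The subunits thus had their highest level in different birds.

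The annotated span of TAP1 covers the whole 2490 bases of BF1. Counts of BF1 and of TAP1 were not whole in any bird, while those of TAP2 and B2M were whole in every bird, so TAP1 and BF1 values may include reads of the other gene. In the RefSeq annotation of the later assembly GRCg7b the order of neighbours is BF1, TAP1, TAP2 and BF2, with BF1 and TAP1 as separate genes, and BFIV21 is there a synonym of BF2. BFIV21, the other classical class I gene measured here (chromosome 16, 59616 to 62099), had 252, 298, 272 and 283 CPM in the HSF and 386, 339.6, 192 and 208 CPM in the LSF birds, a log2 fold change of -0.03 ± 0.22 (SE; edgeR adjusted p = 0.973). Counts of BFIV21 were not whole in any bird either, so reads may be divided between it and another gene. Which genes share reads was not tested. BF1 and BFIV21 together, a sum chosen after the values were seen, averaged 565 ± 115 CPM in the HSF and 512 ± 121 CPM in the LSF birds (SD, n = 4 each), and the groups overlapped.

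The split of the BF1 count between annotated transcripts differed between birds. BF1 counts were not whole in any bird, and whether these shares reflect the transcripts present or the assignment of reads was not tested. The transcript BF1-201 took 97.8%, 99.1%, 90.9% and 97.6% of the BF1 count in HSF birds 1 to 4, against 85.6%, 98.3%, 73.2% and 54.6% in LSF birds 1 to 4. LSF birds 3 and 4 held the lowest shares, with Wilson 95% intervals of 71.1% to 75.2% and 51.7% to 57.5% that cover counting error only. BF1-203 took 14.4% in LSF bird 1 (12.7% to 16.2%), 14.0% in LSF bird 3 (12.4% to 15.6%) and 9.11% in HSF bird 3 (7.97% to 10.4%), and between 0.92% and 6.45% in the other 5 birds. The rest of the gene count lay outside the BF1 transcripts that the authors' deposited transcript table lists. It was 12.8% in LSF bird 3, 38.9% in LSF bird 4 and at most 0.0079% in the other 6 birds. BF1-201 alone averaged 279 ± 97.4 CPM in the HSF and 185 ± 71.6 CPM in the LSF birds (SD, n = 4 each).

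**Figure D2:**
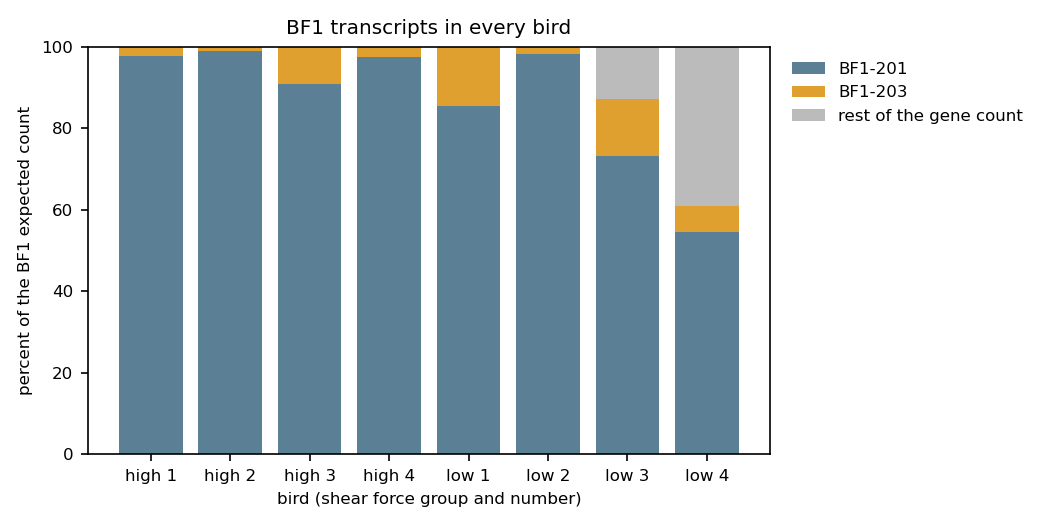
Share of the BF1 expected count (vertical axis, percent) assigned to transcript BF1-201, to BF1-203 and to the rest of the gene in each bird, HSF birds at the left and LSF birds at the right. BF1-201 takes at least 90.9% in the 4 HSF birds and 54.6% to 98.3% in the LSF birds.

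The class II genes had log2 fold changes of 0.47 to 0.97, with overlap between the groups in each. BLB1, a class II beta chain (ENSGALG00000000141, chromosome 16, 102122 to 103266), had 63.1, 102, 151 and 108 CPM in the HSF and 50.6, 40.9, 63.8 and 95.6 CPM in the LSF birds. In 3 of the 4 HSF birds it lay above every LSF bird. Its log2 fold change was 0.76 ± 0.29 (SE), ranging from 0.53 without HSF bird 3 to 1.02 without LSF bird 4. BLB1 counts were not whole in 7 of 8 birds, so reads may be divided with another gene.

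DMB2 encodes the beta chain of DM, which helps exchange the peptide on class II molecules (ENSGALG00000000166, chromosome 16, 76300 to 79327). It had 5.75, 22.8, 14.9 and 16.7 CPM in the HSF and 8.14, 10.003, 4.24 and 8.57 CPM in the LSF birds. HSF birds 2, 3 and 4 lay above all LSF birds, while bird 1 lay among them. The log2 fold change was 0.97 ± 0.38 (SE), and 0.66 without LSF birds 1 and 3. A single transcript, DMB2-202, took all of its count in 7 birds and 89.3% in HSF bird 4.

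CD74 encodes the invariant chain, which holds the class II groove until it is loaded (ENSGALG00000004594, chromosome 13, 12466515 to 12470073). It had 581, 1053, 1392 and 1147 CPM in the HSF and 634, 652, 690.5 and 1044 CPM in the LSF birds. HSF bird 1 was the lowest of all 8, and LSF bird 4 stood apart from the other LSF birds, close to HSF bird 2. The means of 1043 ± 339 CPM in the HSF and 755 ± 194 CPM in the LSF birds (SD, n = 4 each) gave a log2 fold change of 0.47 ± 0.26 (SE), which was 0.66 without HSF bird 1, 0.29 without HSF bird 3 and 0.26 without LSF birds 1 and 3. Its transcript CD74-202 took 81.5% ± 2.35 of the count in the HSF and 79.4% ± 4.19 in the LSF birds (SD, n = 4 each), and CD74-201 took the rest.

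Within the groups, CD74 and BLB1 moved together from bird to bird. With the group mean removed, their log2 CPM had a Pearson r of 0.93 (exact permutation p = 0.00521, adjusted p = 0.0469 over 9 pairs) and a Spearman rho of 0.95 (exact permutation p = 0.00521, adjusted p = 0.0469) over 8 birds. Without HSF birds 1 and 3, which lay farthest from the median of CD74, r was 0.91 over 6 birds (exact permutation p = 0.0625, adjusted p = 0.562), where the 48 orders that 6 birds allow cannot give this pair alone an adjusted p under 0.05. This pair was the single pair of 9 to pass. CD74 and DMB2 had r = 0.63 and rho = 0.43 (exact permutation p = 0.22 and 0.335, adjusted p = 0.661 and 0.738), and without the same birds r was 0.08. YFV on JH375207.1 and ENSGALG00000004772 had r = 0.56 and rho = 0.50 (exact permutation p = 0.366 and 0.358, adjusted p = 0.756 and 0.738), with r = 0.29 without LSF birds 3 and 4.

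Of the class I pairs, BF1 and TAP1, whose annotated spans overlap, had r = 0.68 and rho = 0.33 (exact permutation p = 0.189 and 0.549, adjusted p = 0.661 and 0.738), and r = 0.38 without HSF birds 1 and 2. The transporter subunits TAP1 and TAP2 had r = 0.17 and rho = 0.24, and B2M had r between -0.08 and 0.13 and rho between -0.24 and 0.14 with BF1, TAP1 and CD74 (exact permutation p from 0.569 to 0.92, adjusted p from 0.738 to 0.92). The remaining pair, YFV on JH375196.1 with ENSGALG00000004772, had r = -0.49 and rho = -0.40 (exact permutation p = 0.42 and 0.394, adjusted p = 0.756 and 0.738). Without the birds farthest from the median of B2M, LSF birds 2 and 4, r turned to 0.71 with TAP1 and 0.55 with CD74. Neither passed over these 6 birds (exact permutation p = 0.125 and 0.271, adjusted p = 0.562 and 0.812). Without their own farthest pair of birds the other r were 0.27 for B2M with BF1, 0.22 for TAP1 with TAP2 and -0.32 for YFV on JH375196.1 with ENSGALG00000004772. A p that misses the threshold over 8 birds does not show that a pair is unrelated.

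**Figure D3:**
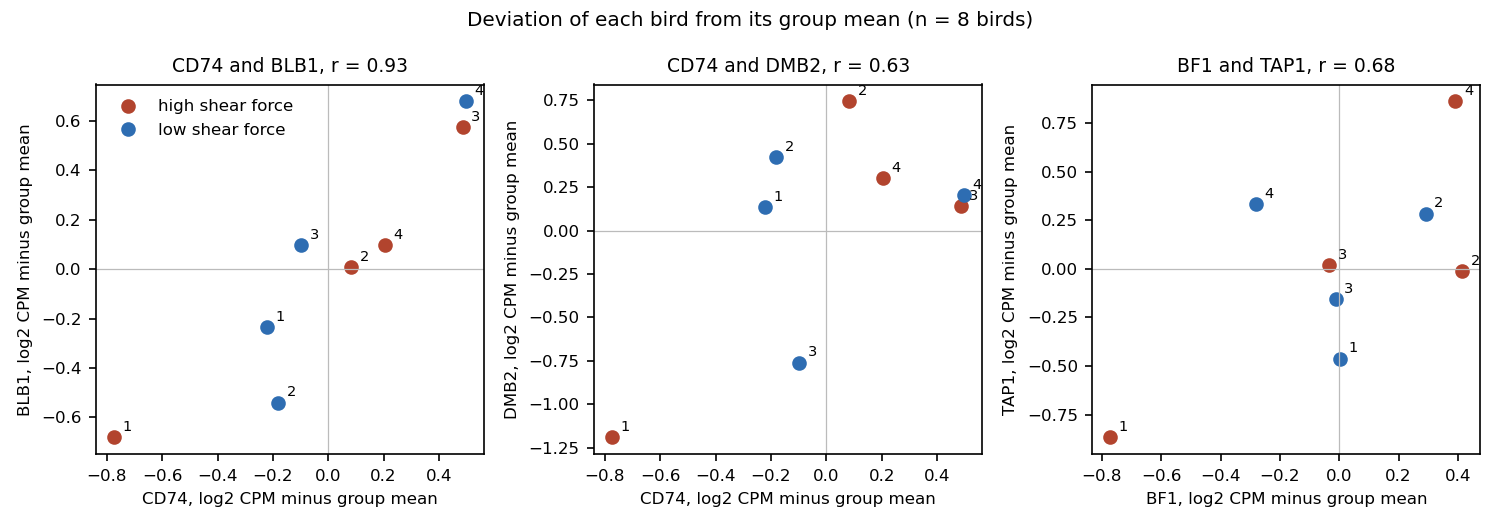
Deviation of each bird's log2 CPM from its group mean for CD74 against BLB1, CD74 against DMB2 and BF1 against TAP1 (both axes in log2 CPM), numbered by bird. The 8 birds lie near a line for CD74 and BLB1 (r = 0.93), and HSF bird 1 has the lowest value on both axes in all 3 panels.

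HSF bird 1 had the lowest level of its group in 6 of the 10 genes and HSF bird 3 the highest in 6. The summed level of the leukocyte and macrophage markers, of which 13 of 33 were measured, was also lowest in the first and highest in the other: 218, 325, 495 and 349 CPM in HSF birds 1 to 4, against 425, 229, 375 and 426 CPM in LSF birds 1 to 4. LSF bird 4, with the highest marker sum of its group, had the lowest level of its group in 5 of the 10 genes and the highest in 4. The 5 were YFV on JH375207.1, ENSGALG00000004772, BF1, B2M and TAP2. The 4 were YFV on JH375196.1, TAP1 and the class II genes BLB1 and CD74. LSF bird 2, with the lowest sum, was lowest in 1 gene and highest in 3. The log2 fold changes of these markers had a median of -0.05, with 5 of 13 higher. PTPRC, the pan-leukocyte CD45 antigen, stood at -0.64 ± 0.31 (SE) and CSF1R, the macrophage growth factor receptor, at 0.11 ± 0.32 (SE), while C1QA, a complement protein made by macrophages, stood at 0.74 ± 0.30 (SE; edgeR adjusted p = 0.356). The 3 of 10 B cell markers measured, BLNK, BTK and IGJ, summed to between 25.2 and 41.0 CPM in the HSF and between 22.3 and 35.3 CPM in the LSF birds. All 3 had a positive log2 fold change, as had 50.8% of all genes, from 0.06 to 0.79 with a median of 0.14. By edgeR's quasi-likelihood test 0 of the 3 passed (smallest adjusted p = 0.34). The other listed B cell markers are not analysed here. The part of leukocyte number in the levels of the 10 genes was not tested.

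All measured red blood cell and vessel markers had a positive log2 fold change, but 0 of them passed edgeR's quasi-likelihood test (smallest adjusted p = 0.152 and 0.238). At an unadjusted p under 0.05 were 3 of the 5 and 4 of the 11, all higher, where 7.92% of all genes were. DESeq2 called 3 of the 5 red blood cell and 0 of the 11 vessel markers, where it called 0.888% of all genes as higher. The sums of both groups of markers overlapped between HSF and LSF birds. The globins HBB, HBAA and HBAD each had all 4 HSF birds above all 4 LSF birds, as had 3.89% of all genes. Their log2 fold changes were 1.88, 1.94 and 2.17. The red blood cell markers CA2, at 115 to 488 CPM in the HSF and 137 to 226 CPM in the LSF birds, and TFRC overlapped. HBB, a beta globin, had 84.5, 266, 75.1 and 72.1 CPM in the HSF and 29.0, 43.3, 24.8 and 38.0 CPM in the LSF birds, with the highest level in bird 2 of each group. The 5 of 17 erythrocyte markers measured had a median log2 fold change of 1.88 and summed to between 282 and 899 CPM in the HSF and between 205 and 326 CPM in the LSF birds. The 11 of 15 endothelial markers measured were all on the positive side, at a median of 0.60, and summed to between 341 and 644 CPM in the HSF and between 284 and 483 CPM in the LSF birds. The bird with the highest globins, HSF bird 2, had the lowest level of YFV on JH375207.1, B2M and TAP2 and the highest of BF1 and DMB2 among the HSF birds. Without it the log2 fold change of DMB2 was 0.70, and the part of blood and vessels in the levels of the 10 genes was not tested.

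The other genes of antigen presentation gave no common direction. Of 104 listed symbols in 6 groups, 59 were measured, 26 higher and 33 lower in the HSF birds, with a median log2 fold change of -0.02 against 0.01 over all genes. By group, 13 of 16 symbols of class I loading, 7 of 17 of class II loading and 15 of 17 of the proteasome were measured. For MHC transcription factors it was 9 of 15, for interferon signalling 7 of 15 and for interferon-induced genes 8 of 24. The medians do not cover the listed symbols without a row in the authors' deposited table, whose genes may still have counts. At an adjusted p under 0.05, 0 of the 59 passed edgeR's quasi-likelihood test, the share over all genes being 0%, and 4 had an unadjusted p under 0.05, where 12.8% of all genes did. DESeq2 and limma-voom also called 0 of the 59, where DESeq2 called 1.21% and limma-voom 0% of all genes.

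In class I loading 8 of 13 genes were higher and 5 lower (median 0.10). TPN, tapasin, which links class I molecules to the transporter, stood at 0.44 ± 0.23 (SE; edgeR adjusted p = 0.439) and, like 6 of the 10 genes, lies on chromosome 16. SPPL2A, an intramembrane protease, was listed here although it is known in mice to cleave the remnant of the invariant chain, a class II step. It had 225, 216, 209 and 221 CPM in the HSF and 289.6, 254, 329 and 234 CPM in the LSF birds, without overlap, at -0.35 ± 0.15 (SE; edgeR adjusted p = 0.362). The loading chaperones CALR and PDIA3 stood at 0.17 ± 0.16 and 0.10 ± 0.15 (SE). In class II loading 3 of 7 genes were higher and 4 lower (median -0.09): the lysosomal protease CTSD stood at -0.56 ± 0.26 (SE; edgeR adjusted p = 0.392), CTSS, the cathepsin known to trim the invariant chain, at 0.32 ± 0.27 (SE), and DMA, the alpha chain of DM, at 0.40 ± 0.27 (SE).

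The 15 proteasome genes measured had a median of -0.02, with 5 higher and 10 lower, and the activator PSME4 had the smallest p at -0.47 ± 0.25 (SE; edgeR adjusted p = 0.444). The 9 transcription factors tied to MHC genes had a median of -0.06, with 3 higher. NLRC5, an activator of class I genes in mammals, stood at -0.28 ± 0.33 (SE), and NFYA, a subunit of the factor that binds the CCAAT box of MHC promoters, had 20.8, 22.4, 22.3 and 22.6 CPM in the HSF and 26.0, 24.6, 28.2 and 30.7 CPM in the LSF birds, at -0.31 ± 0.14 (SE; edgeR adjusted p = 0.379).

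Genes of interferon signalling, the main inducer of MHC genes, had a median of -0.18, with 2 of 7 higher. Of the 8 interferon-induced genes measured, from 24 listed, 5 were higher, with a median of 0.05. EIF2AK2, the RNA-activated kinase PKR, stood at 0.51 ± 0.21 (SE; edgeR adjusted p = 0.357). Without LSF birds 1 and 3 the log2 fold change was 0.28 for EIF2AK2, -0.14 for CTSD, -0.09 for PSME4 and -0.20 for SPPL2A. That of NFYA did not shrink, at -0.36 without these birds.

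**Figure D4:**
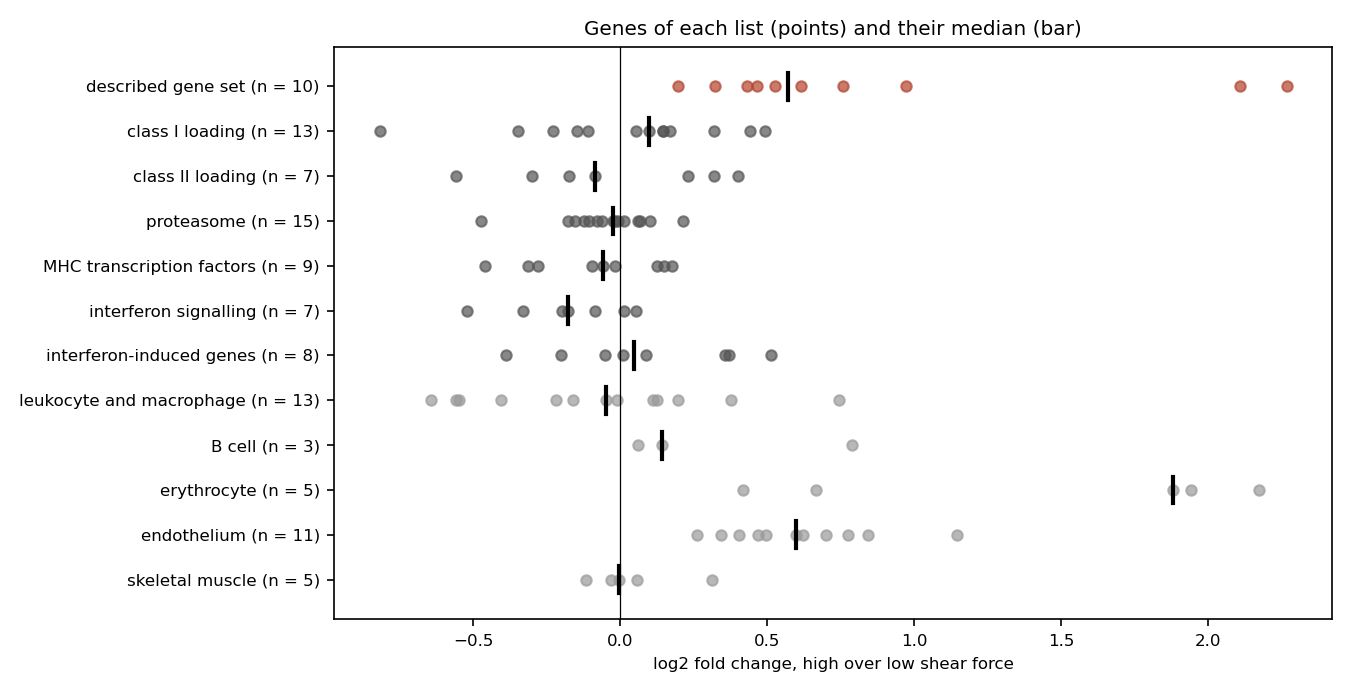
Log2 fold change, high over low shear force (horizontal axis), of each gene (points) in the set of 10, in 6 groups of antigen presentation genes and in 5 groups of cell type markers, with the median of each as a bar. The set of 10, picked with these values known, has a median of 0.57, while the medians of the 6 groups lie between -0.18 and 0.10.

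By position, the other genes of chromosome 16 lay mostly on the same side as the set. Outside the set, 17 of 18 measured genes there had a fold change above 0 on the log2 scale (median 0.41), where 50.8% of all genes were positive. By the edgeR quasi-likelihood test 0 passed at an adjusted p under 0.05, 7 had an unadjusted p under 0.05, all higher, where 7.92% of all genes were, and DESeq2 called 2, where it called 0.888% of all genes as higher. TPN and DMA are counted here and among the loading genes above. Some of these genes overlap or may share reads, so the 18 are not independent.

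ENSGALG00000024348 (366619 to 369245), a neighbour of ENSGALG00000004772 without a symbol, had 7.50, 11.8, 14.0 and 17.7 CPM in the HSF and 4.15, 5.26, 3.60 and 6.89 CPM in the LSF birds, without overlap. Its log2 fold change was 1.37 ± 0.30 (SE; edgeR adjusted p = 0.137, DESeq2 adjusted p = 0.0069). ENSGALG00000027955, on the other side at 389809 to 394217, also without overlap, stood at 1.17 ± 0.38 (SE; edgeR adjusted p = 0.293), and the unnamed gene at 16221 to 33713 at 1.06 ± 0.26 (SE; edgeR adjusted p = 0.181, DESeq2 adjusted p = 0.037). B-G, of the butyrophilin-like family found on chicken red blood cells, stood at 0.77 ± 0.29 (SE; edgeR adjusted p = 0.34) and BG2 of the same family at 0.98 ± 0.37 (SE), each from under 11 CPM in every bird. ZNF692, a zinc finger gene, stood at 1.00 ± 0.33 (SE; edgeR adjusted p = 0.295). The abundant gene GNB2L1, a ribosome scaffold, had 919 ± 56.2 CPM in the HSF and 751 ± 112 CPM in the LSF birds (SD, n = 4 each), without overlap, at 0.29 ± 0.16 (SE; edgeR adjusted p = 0.451). Counts of both B-G genes and of the unnamed neighbours of ENSGALG00000004772 were not whole in at least 7 of 8 birds.

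**Figure D5:**
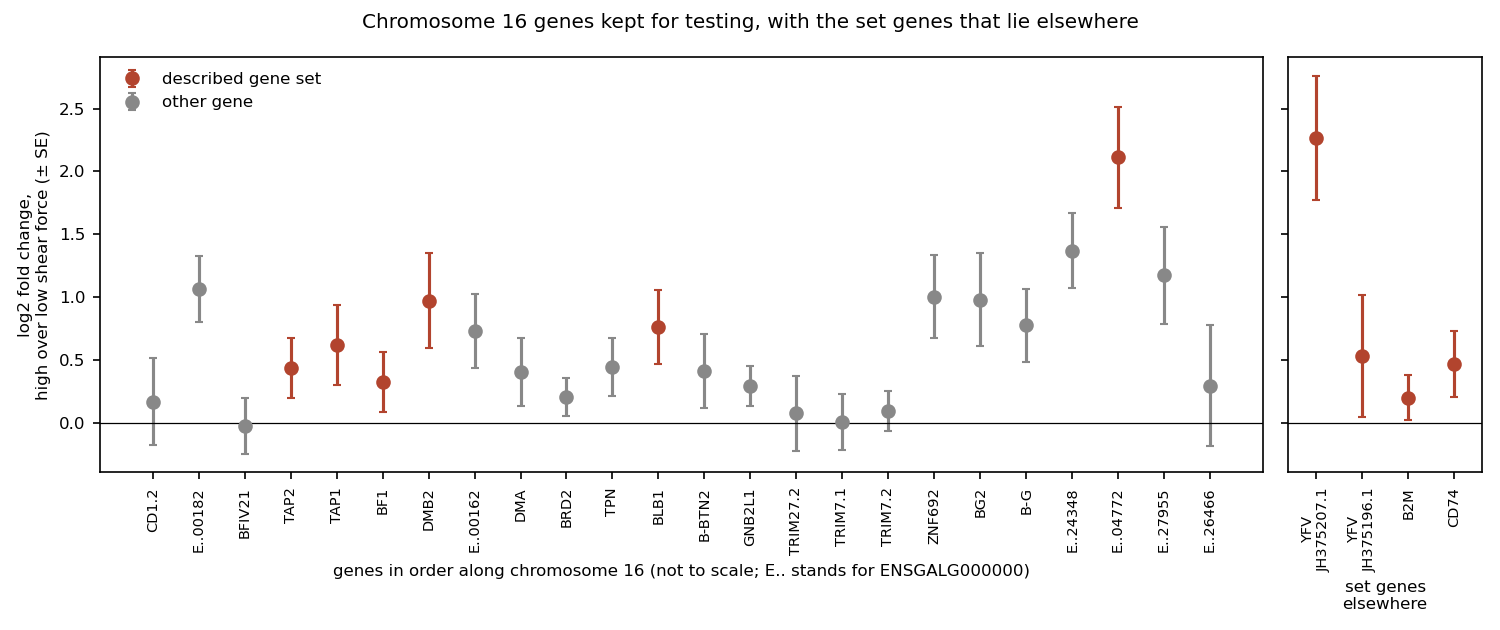
Log2 fold change, high over low shear force, with its SE (vertical axis) for the 24 chromosome 16 genes measured, in their order along the chromosome and not to scale, with the set genes in red and the others in grey; the right panel holds the 4 set genes that lie elsewhere. ENSGALG00000004772, at 2.11, stands above its neighbours at 1.37 and 1.17, and BFIV21 is the single gene below 0.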

How the data were processed

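The authors deposited expected counts (estimated read counts) per Ensembl gene and transcript, 1 column per bird, and a table of log2 fold changes. The labels name 2 technical repetitions per library; neither their combination nor any filter or strand setting is stated in the labels or headers. The submitters' processing notes name TopHat, Bowtie2, RSEM, edgeR and DESeq2 among their tools and the build galGal4. The sign of the authors' deposited log2 fold changes, tested against the counts, is low over high shear force and was turned here. Symbols and coordinates are those of the same table; no sequences were used here.

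Counts were rounded to whole numbers, and 10136 genes passed filterByExpr of edgeR 4.0.16 (99.8% of all counts). CPM uses TMM library sizes. The test was the edgeR quasi-likelihood test, robust, on the group, with Benjamini-Hochberg adjustment over all genes at 0.05. Every fold change is high over low shear force, 2-sided where tested, with the SE as the size of the log2 fold change over the root of F. DESeq2 1.42.0 and limma-voom (limma 3.58.1) were alternatives. Correlations used log2 CPM (prior count 2) and all 576 orders of birds within groups, the smallest p being 0.00174. On simulated counts for 10136 genes, a log2 change of 1 was recovered in 50 of 100 genes and of 2 in 90 of 100. Of 144 calls 4 were false. Each simulated gene varied independently, with no difference shared by genes within a bird, so these shares may not hold for the real birds.

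The members and gene lists were chosen with earlier results of these data known. Named besides the 10 genes are list genes with an unadjusted p under 0.05 or the smallest p, up to 5 chromosome 16 genes by p and the 3 genes most like each leading gene; TPN, CALR, PDIA3, CTSS, DMA, NLRC5, PTPRC, CSF1R, C1QA, HBB, GNB2L1, BFIV21 and BG2 were chosen after their values were seen. A gene that this rule would name is not reported here. Birds are separate animals. Bird numbers were not treated as a pairing in the main test.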

Additional observations from a re-analysis of the deposited data

Results flagged for a closer look

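Among 78 groups of 4 birds examined, 4 held a bird far from the other 3 of its group, and chance gives about 1 in 20. CD74 stood at 1044 CPM in LSF bird 4, against 634 to 690.5 CPM in the other LSF birds. ENSGALG00000026466, the last measured gene on chromosome 16, stood at 12.8 CPM in the same bird, against 4.00 to 4.37 CPM in the others. In HSF bird 1 TRIM7.1, a chromosome 16 gene of the tripartite motif family, stood at 46.1 CPM, against 28.9 to 30.9 CPM in the others of its group, and NFYA at 20.8 CPM, against 22.3 to 22.6 CPM.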

How the results depend on the processing

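The count of genes called over the whole table, 0 by the edgeR quasi-likelihood test, was 7 with no filter on low counts, 1 with the replicate block and 123 with DESeq2, and ran from 0 to 7 with 1 bird left out: 3 without HSF bird 1, 7 without LSF bird 2 and 1 without LSF bird 4. Of the 10 genes, ENSGALG00000004772 was among the 7 called without LSF bird 2. With YFV on JH375207.1 it was among the 123 called by DESeq2, which were 1.21% of all genes. Since the 10 genes were picked with this contrast known, nothing is read from these calls. Same-numbered birds of the groups had correlations of their deviations between -0.0032 and 0.32. These were not tested and cannot show whether the numbers pair the birds. The count of other antigen presentation genes called was 0 under every alternative run. RLE scaling, a filter of 1 CPM in 4 birds, limma-voom and, chosen after seeing the data, leaving out LSF birds 1 and 3 gave 0 over the whole table. Of the correlated pairs, 1 passed with all birds and 0 without the 2 birds farthest from the median, a test too small for a single pair to pass, with r = 0.91 (adjusted exact permutation p = 0.562) for CD74 with BLB1; there B2M with TAP1 turned to r = 0.71 and B2M with CD74 to r = 0.55; the cause was not tested. Low counts limit YFV and ENSGALG00000004772, at 8.91 and 13.3 expected counts in their lowest bird.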
